A study of Mus musculus with 12 samples.

Results

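The cytosolic ribosomal protein genes encode the proteins that, with the ribosomal RNAs, build the large and the small subunit of the ribosome in the cytoplasm. Their members were taken by symbol, as Rpl, Rps, Rplp or Rpsp followed by a number and at most 1 letter, among the genes of the deposited table of CPM values (reads of a gene scaled to a common library size); 77 genes met this rule, 46 of the large and 31 of the small subunit. The gene count table lists 49398 genes and that of CPM values 11339, and 5 further genes of the symbol pattern stand only in the count table. The livers came from wild-type C57BL/6J mice, an inbred strain, aged 9 months when they went on AIN-93G chow. The control chow (CTRL) held no added oil, and the other diets held 1% (VLC1) or 5% (VLC5) by weight of a concentrate oil of very-long-chain polyunsaturated fatty acids (VLCPUFA). All mice were on their diet for 8 weeks and were killed after a 5 h fast. The 12 libraries labelled are 2 females and 2 males per diet. On the control chow the females are N979, N980 and the males N967, N968; on 1% oil the females are N983, N984 with the males N971, N972; on 5% oil N987, N988 are female while N975, N976 are male.

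A ribosome needs most of its core proteins in equal number, and cells spend a large share of their messenger RNA on them. Many of these messengers begin with a C followed by a run of pyrimidines, the 5′ terminal oligopyrimidine (TOP) motif, through which the kinase complex mTORC1 and the RNA-binding protein LARP1 control their translation and stability. The transcription factor Myc drives the genes of ribosome assembly and, with RNA polymerase I, the supply of ribosomal RNA. In the liver, feeding, fasting and growth all act on ribosome production.

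RefSeq entries of the build GRCm38.p6 were found for 56 of the 77 members, with 67 annotated start sites. The windows below are shown because they bear the TOP-like start, or lack it at the annotated site, in members that the results turn on. Each runs from 10 bases before to 20 bases from the annotated start, 5′ to 3′ on the strand of the gene, and capitals mark the longest run of at least 5 C or T that opens with a C within 5 bases of the start.

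Rps18: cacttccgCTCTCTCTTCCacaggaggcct
Rps27: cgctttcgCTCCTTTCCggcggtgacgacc
Rps6: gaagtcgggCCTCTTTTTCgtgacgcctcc
Rpl13a: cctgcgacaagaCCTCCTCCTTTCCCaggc
Rpl28: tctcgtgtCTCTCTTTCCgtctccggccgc
Rps27l: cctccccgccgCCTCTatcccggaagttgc
Rps28: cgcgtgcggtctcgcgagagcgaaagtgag
Rplp0: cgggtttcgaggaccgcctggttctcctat

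These windows lie at chr17:33955646-33955675 on the minus strand (Rps18), chr3:90213629-90213658 on the minus strand (Rps27), chr4:86857348-86857377 on the minus strand (Rps6) and chr7:45128726-45128755 on the minus strand (Rpl13a). Those of Rpl28 (chr7:4792955-4792984, plus), Rps27l (chr9:66946076-66946105, plus), Rps28 (chr17:33824543-33824572, minus) and Rplp0 (chr5:115559457-115559486, plus) complete the set. The upstream part of each window is promoter and the rest is the annotated start of the transcript. A run of this kind was present at 28 of the 56 members (50%) and at 21.2% of all 27025 genes in the promoter table. Rps18 carries a run of 11 bases and Rpl13a of 14, whereas Rps27l, the paralogue of Rps27, has 5. Within 250 bases before and 50 after the start, CCGGAAG, a motif bound by the ETS factor GABP, occurred on either strand in 23 members (41.1%) against 9.93% of all genes. AAGATGG, a motif bound by YY1, occurred on either strand in 9 members (16.1%) against 7.28%; a match describes the letters and is not a measured binding site.

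Depth ran from 5291385 to 15674130 estimated reads per library in the gene table. The tissue label held: the 13 hepatocyte markers together reached 115030 to 221960 CPM in the 12 livers, and albumin alone 70315 CPM or more in each. Library N979 stood apart, with 7.96% of the reads of the transcript table on ribosomal RNA against 0.0501 to 0.387% in the other 11. The share of transcript reads on models with a retained intron was 4.84 to 5.19% in females N979, N983, N984 and N988, 2.44% in N980, 2.19% in N987, and 2.02 to 3.39% in the males. Levels below are CPM of the gene table scaled with TMM factors, a correction for the make-up of each library. In whole liver, fewer cells of a type and less RNA per cell cannot be told apart.

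The members together took 1.59 to 2.65% of gene reads in the females and 0.991 to 1.57% in the males. In summed TMM-scaled CPM the control females had 19222 (N979) and 17689 (N980) and the control males 10248 (N967) and 14908 (N968). With 1% oil the females had 18081 (N983) and 18155 (N984) and the males 13844 (N971) and 15734 (N972). With 5% oil the females had 21354 (N987) and 23366 (N988) and the males 14401 (N975) and 15157 (N976). Each of the 6 females lay above each of the 6 males, while the diets overlapped. Liver by liver, N988 was the highest of the 12 for 59 of the 77 members and lay above the member's median for all 77. Control male N967 was the lowest for 70 members and lay above the median for 0.

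**Figure D1:**
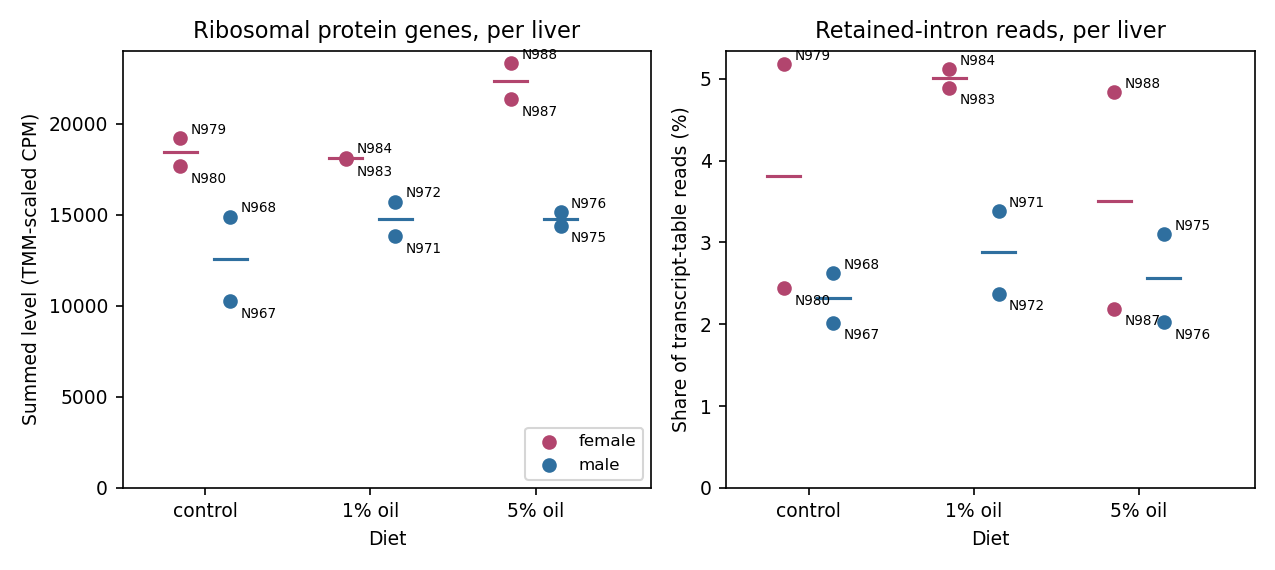
Summed TMM-scaled CPM of the 77 ribosomal protein genes (left) and share of transcript-table reads on retained-intron models (right) by diet; each point is 1 liver with its animal number, and each line is the mean of 2 livers. On the left all 6 females (17689 to 23366) lie above all 6 males (10248 to 15734); on the right N980 and N987 are the females at the level of the males.

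With the reads of each transcript scaled to its own length and summed per gene, the members' levels spread widely. Rpl13a of the large subunit had the highest level, 706 CPM per kb, followed by Rps2 (693) and Rpl41 (682); Rps25 (656) and Rps27 (653) were also among the highest. The median member had 312 CPM per kb. Lowest were Rps4l, a paralogue of Rps4x, at 6.04, Rpl12 at 7.59, Rpl5 at 19.3 and Rpl27 at 72.2 CPM per kb. The most read transcripts of Rpl12 (1417 bases) and Rpl5 (2045 bases) are long beside the members' median of 612 bases, so their low levels are uncertain. Whether other transcript models or gene copies took their reads was not tested. Reads of near-identical processed copies can be shared out by estimation: 289 pseudogenes named after 59 members drew 237249 reads in all against 2190131 on the members. For Rpl10, Rps23, Rpl28 and Rpl27 the pseudogenes drew more reads than the gene itself (79718 against 17107 for Rpl10), so the levels of these 4 are uncertain. Only pseudogenes named after a member were counted. Pseudogenes also drew 49.3% of the combined reads for Rps12, 40.2% for Rps6, 37.3% for Rpl15, 35.0% for Rpl31 and 34.4% for Rps16. For Rps13, Rpl36a, Rpl10a and Rpl14 the share was 24.9 to 30.4%, and the levels of all these members are uncertain too. Of the paralogues outside the CPM table, Rpl3l and Rpl6l had 4 reads each over all 12 livers and Rpl39l had 2, while Rpl10l and Rpl32l had 0, which allows up to 3 reads among the 126248062 of the 12 libraries. Rpl3l and Rpl10l are known from striated muscle and testis.

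The clearest difference in these genes was between the sexes, with ribosomal protein messengers higher in female livers. Of the 77 members, 38 were higher in females and 0 lower (edgeR's quasi-likelihood test over 13814 genes, Benjamini-Hochberg adjusted p under 0.05), where 3.6% of all genes tested were called higher and 5.34% lower. The members' median log2 fold change, females over males, was 0.50 against 0.03 over all genes. The fold change was above 0 for 75 members (52.8% of all genes), and 68 had an unadjusted p under 0.05 (28.7% of all genes). Both subunits took part: 20 of 46 large subunit genes (median 0.49) and 18 of 31 small subunit genes (median 0.51) were called. Those called ran from a log2 fold change of 0.42 to 0.86. The number called rested on single livers. It was 12 without N984, 13 without N976, 14 without N988, 16 without N967 and 20 without N975. It was 24 without N971 and 25 without either N979 or N983, with a median of 0.41 to 0.56 whichever liver was left out. Over all genes the calls either way ran from 594 (without N967) to 2356 (without N980), against 1235 with all livers.

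**Figure D2:**
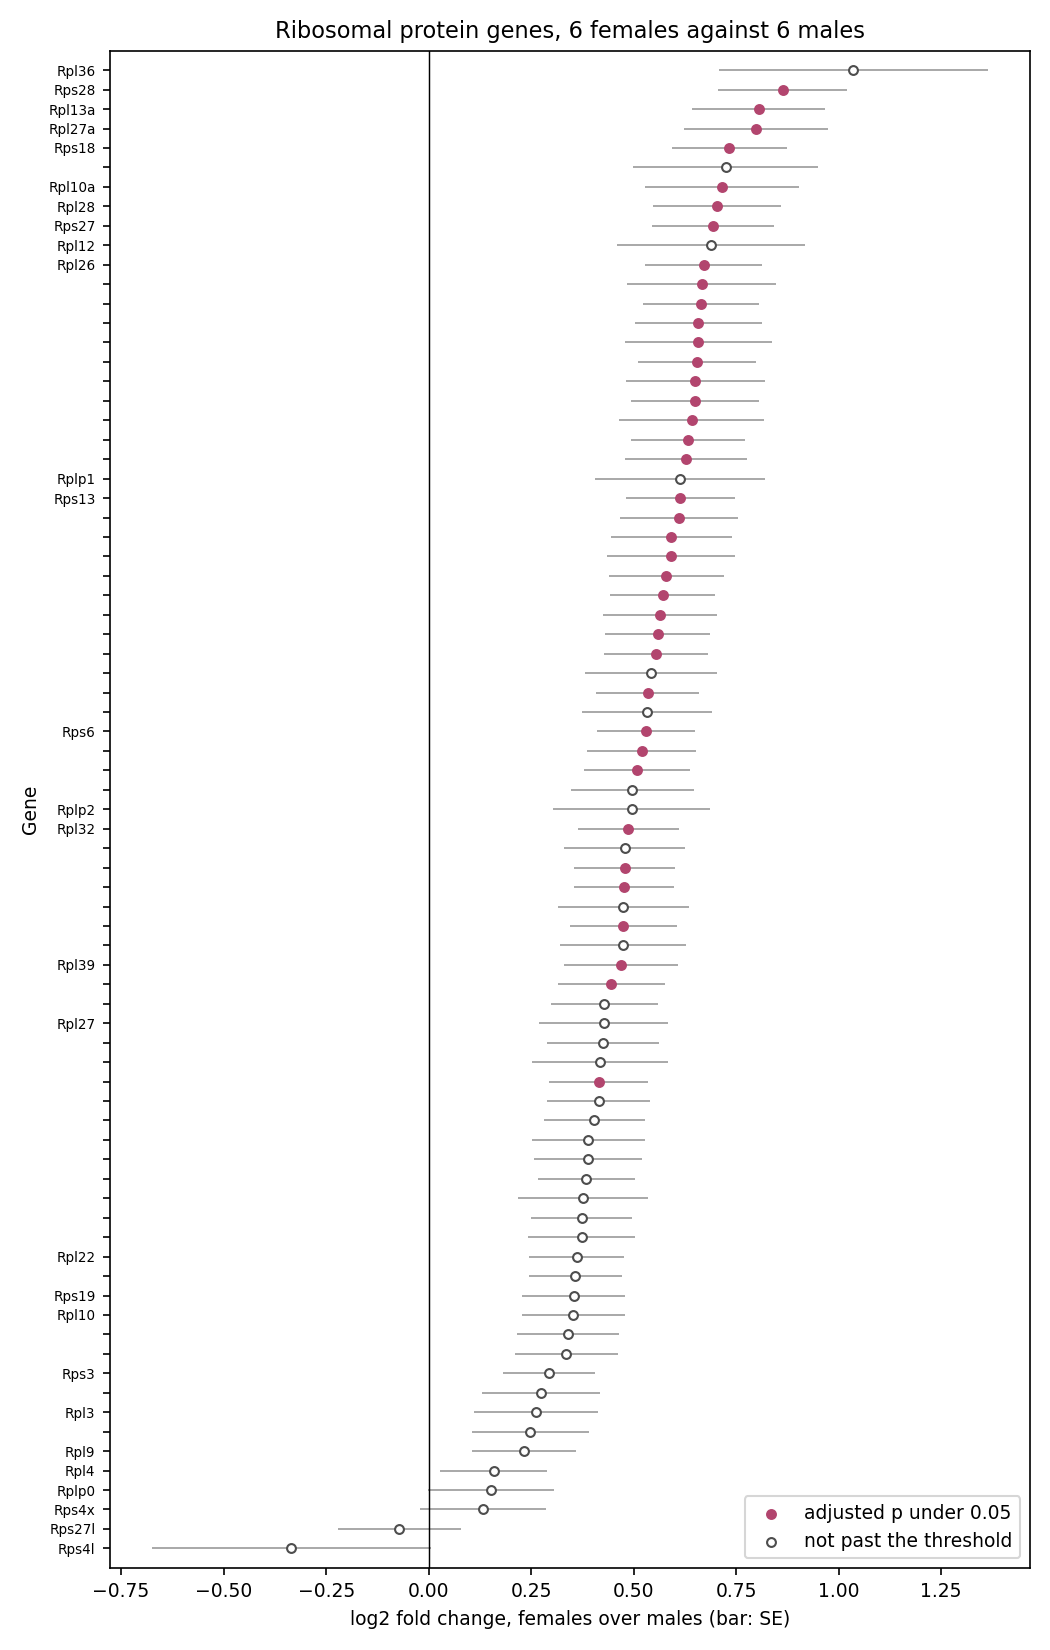
log2 fold change of each of the 77 members, females over males, with its standard error, from the fit on all 12 livers with diet as a term; names are given for most members described in the text. The 38 filled points passed an adjusted p of 0.05, and Rps27l and Rps4l are the 2 members below 0.

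Among small subunit genes, Rps28, which sits near the messenger RNA exit, had the smallest adjusted p. The females had 108 to 183 CPM (median 159) and the males 59.2 to 108 (median 87.7). The groups did not overlap, and the log2 fold change was 0.86 ± 0.16 (SE; n = 6 per sex; edgeR adjusted p = 0.00445). Rps18, a protein of the small subunit head, had 353 to 589 CPM in females (median 438) and 180 to 305 in males (median 285). Every female again lay above every male (log2 fold change 0.73 ± 0.14, edgeR adjusted p = 0.00645). Rps27, a zinc-finger protein, had 224 to 334 CPM in females (median 284) and 102 to 196 in males (median 186). It was higher by 0.69 ± 0.15 (edgeR adjusted p = 0.0126). Rps6, the protein that S6 kinases phosphorylate downstream of mTORC1, had 258 to 341 CPM in females (median 324) and 161 to 242 in males (median 219), also without overlap. Its log2 fold change was 0.53 ± 0.12 (edgeR adjusted p = 0.0158).

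In the large subunit, Rpl13a, also known as an inhibitor of translation outside the ribosome, had 366 to 589 CPM in females (median 467) and 179 to 319 in males (median 295). All females lay above all males, and the log2 fold change was 0.80 ± 0.16 (edgeR adjusted p = 0.00873). Rpl26, which also binds p53 messenger RNA, was higher by 0.67 ± 0.14, with 345 to 484 CPM in females and 175 to 297 in males. Rpl28 (0.70 ± 0.15) and Rpl27a (0.80 ± 0.18) were called as well. Rpl32 (0.49) and Rpl39 (0.47, edgeR adjusted p = 0.0494), a small protein of the exit tunnel, were called closer to the threshold.

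The other members did not pass between the sexes. Rplp0, the base of the ribosomal stalk that recruits elongation factors, had 210 to 433 CPM in females (median 295) and 235 to 329 in males (median 240). These ranges overlapped, and the log2 fold change was 0.15 ± 0.15 (edgeR adjusted p = 0.539). Its partners in the stalk gave 0.61 ± 0.21 (Rplp1, edgeR adjusted p = 0.077) and 0.50 ± 0.19 (Rplp2, edgeR adjusted p = 0.11). Rpl3, at the peptidyl transferase centre, gave 0.26 ± 0.15, Rps3 at the messenger entry channel 0.29 ± 0.11, Rpl4 0.16 ± 0.13 and Rps4x, the X-linked Rps4 gene, 0.13 ± 0.15. Rpl22 gave 0.36 ± 0.12 (edgeR adjusted p = 0.0638). Rpl36 had the greatest fold change of the members, 1.04 ± 0.33, yet did not pass (edgeR adjusted p = 0.0682): its females ran from 38.3 to 138 CPM and overlapped the males at 21.3 to 46.4.

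The p53-inducible paralogue Rps27l did not follow Rps27. It had 138 to 182 CPM in females (median 162) and 127 to 218 in males (median 157), and its log2 fold change was -0.07 ± 0.15 (edgeR adjusted p = 0.781). Rps4l, low in every liver, had 2.15 to 10.7 CPM in females and 4.08 to 8.48 in males (-0.33 ± 0.34, edgeR adjusted p = 0.539).

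**Figure D3:**
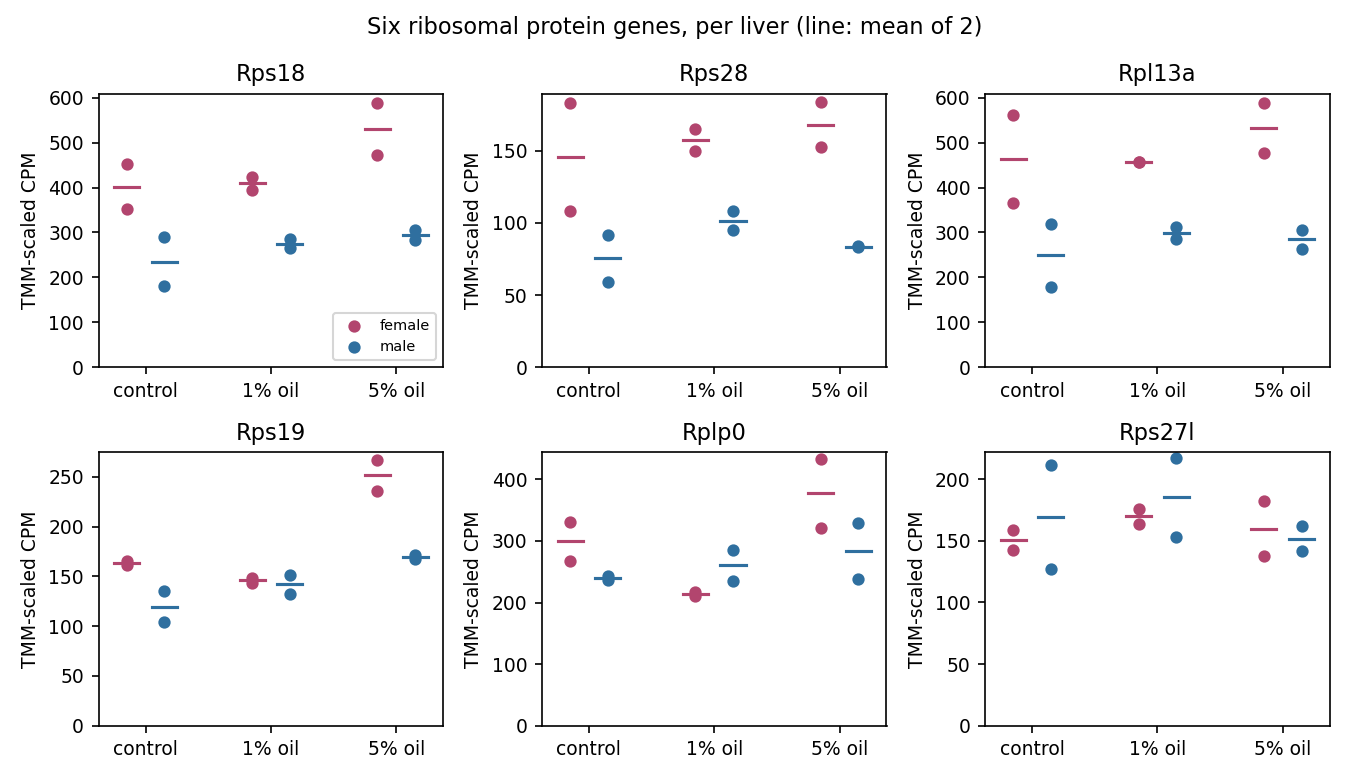
TMM-scaled CPM of 6 members in each liver by diet and sex; each point is 1 liver and each line the mean of 2. Rps18, Rps28 and Rpl13a separate the sexes in every diet, Rps19 is highest in the 5% females (236 and 267), and Rplp0 and Rps27l overlap between the sexes.

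The separation can also be counted without a model. All 6 females lay above all 6 males for 28 of 77 members, where 1.61% of all genes tested did so. Within the control diet both females lay above both males for 65 members (19.5% of all genes). With 5% oil this held for 71 members (22.7%). With 1% oil it held for 52 (28.3%), and for 4 members, Rpl29, Rplp0, Rplp1 and Rps4l, both males lay above both females (27.3%). The median log2 fold change between the sexes was 0.56 in the control diet, 0.27 with 1% oil and 0.63 with 5% oil.

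Some other properties of the livers differed between the sexes, most with overlap. The retained-intron share was highest in 4 of the 6 females. The summed Kupffer cell and macrophage markers (13 of 13 tested) ran from 353 to 867 CPM in females and from 219 to 523 in males. The summed nuclear-retained RNAs (3 of 8 tested) ran from 275 to 1232 CPM in females and from 255 to 713 in males. The T and NK cell markers (8 of 11 tested) summed to 6.70 to 16.3 CPM in females and 4.40 to 8.27 in males. Single markers called higher in females were Clec4f of Kupffer cells (log2 fold change 0.91) and Stab1 of sinusoidal endothelium (0.75). Ecm1 of stellate cells (0.67) and Csf3r of neutrophils (1.24) were also higher, and the erythroid Alas2 was lower (-3.15). Each was the only marker of its list called, of 13, 11, 11, 4 and 5 tested (3.6% of all genes higher, 5.34% lower). In that order the list medians were 0.63, 0.27, 0.04, 0.40 and, opposite to Alas2, 0.16. Summed endothelial markers ran from 225 to 452 CPM in females and from 238 to 332 in males. Stellate sums were 337 to 547 and 321 to 433 CPM, and erythroid sums 70.7 to 508 and 104 to 548. Mitochondrially encoded genes took 5.51 to 10.2% of gene reads in females and 9.36 to 11.98% in males. Their part in the result was not tested, except as follows. With the retained-intron share as a further term, 1 member was called between the sexes, Rpl3 (log2 fold change 0.58), while the members' median was 0.46. Calls over all genes then numbered 326 of 13814, against 1235 in the main fit. Without N979 and N988, 3 members were called, Rps28 (0.67), Rps18 (0.61) and Rpl13a (0.63), with a median of 0.43. Over all genes 514 of 14235 were called in that fit. Females N980 and N987, whose retained-intron share lay in the range of the males, were both above all 6 males for 53 of 77 members, against 5.88% of all genes.

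The size of the sex difference varied with transcript length. The members' most read transcripts are 345 to 2045 bases long (median 612), against a median of 2657 over the genes tested. Across the 77 members, which share their 12 libraries, length and the log2 fold change between the sexes had a Spearman correlation of -0.46. Of 38 members under 600 bases 25 were called (median log2 fold change 0.59), of 17 from 600 to under 800 bases 8 (0.47), of 11 from 800 to under 1000 bases 3 (0.39), of 8 from 1000 to under 1500 bases 2 (0.45), and of 3 longer ones 0 (0.27). Other short genes leaned the same way by less: the 483 others under 600 bases had a median of 0.27 with 6.63% called higher, and the 7366 of 2500 bases or more a median of -0.0029 with 2.78%. At every length at which members exist, their median lay above that of the other genes.

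**Figure D4:**
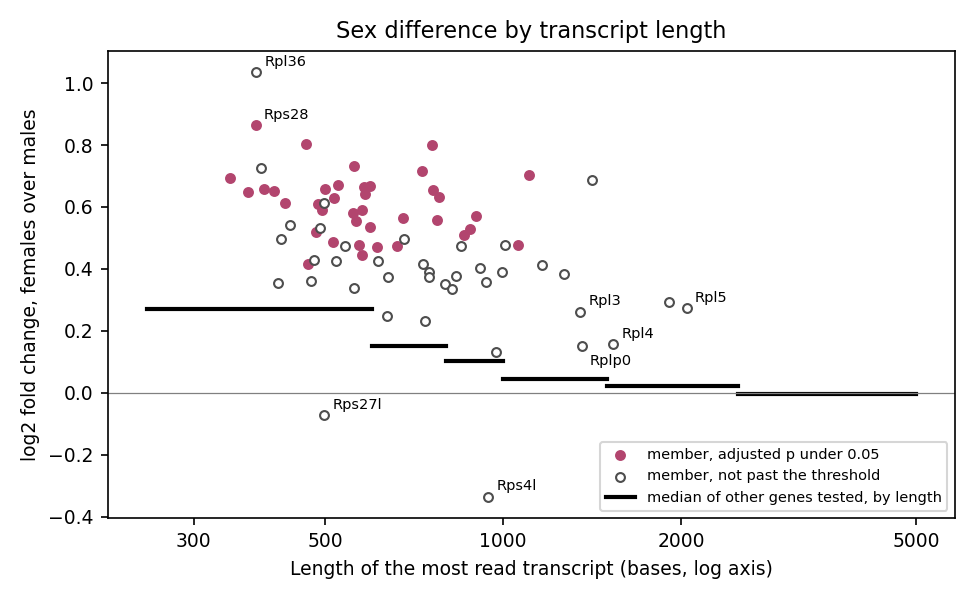
log2 fold change, females over males, against the length of the most read transcript (log axis); each point is a member, filled where the adjusted p is under 0.05, and black bars are medians of the other genes tested in 6 length ranges. Members under 600 bases have a median of 0.59 and the other genes of that length 0.27.

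Members with and without the TOP-like run did not separate by sex difference: 13 of 28 with a run were called higher in females (median log2 fold change 0.50) and 14 of 28 without (0.46). Rps28 and Rpl13a, both called, are an example of each, and Rps27l, not called, has the short run printed above.

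For the diets, 5% oil was set against control to ask what the higher dose does to the ribosomal protein genes. None passed: 0 of 77 were called by edgeR, where 2.46% of all genes were, and 14 had an unadjusted p under 0.05 (14.6% of all genes). The fold changes leaned upward, with 74 of 77 above 0 (51.5% of all genes) and a median of 0.26 on the log2 scale, against 0.01 over all genes. The lean was similar in both subunits, 0.23 for the large and 0.27 for the small. DESeq2 called 2, among them Rps19 (log2 fold change 0.55), where it called 749 of all 13814 genes. With no scaling factor edgeR called 7, and 428 of all genes. Markers of liver cells moved beside this lean. The 13 hepatocyte markers had a median log2 fold change of -0.42 with 5% oil, and 1 of them, the urea cycle enzyme Ass1, fell by 1.32 (edgeR adjusted p = 0.00646). Their sum ran from 115030 to 140700 CPM with 5% oil and from 131530 to 221960 in controls. Control female N980 had 146150 CPM of albumin, against 78722 to 96227 in the other controls. Most other cell lists also had medians below 0. These were -0.49 for Kupffer cells and macrophages, -0.39 for T and NK cells and -0.37 for sinusoidal endothelium. Stellate cells had -0.30, cholangiocytes -0.28 and B cells -0.01, while neutrophils had 0.62. Of 5 tested erythroid markers (median -1.455) the haem synthesis enzyme Alas2 fell by 1.17 (edgeR adjusted p = 0.0168). Their part in the lean was not tested. Without control male N967, the lowest liver, the median was 0.16, and without N988 it was 0.19.

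Rps19, mutated in many patients with Diamond-Blackfan anaemia, came closest. Control livers had 165 (N979), 162 (N980), 104 (N967) and 135 (N968) CPM. With 1% oil the values were 149 (N983), 144 (N984), 133 (N971) and 152 (N972), and with 5% oil 236 (N987), 267 (N988), 167 (N975) and 172 (N976). Every 5% liver lay above every control and every 1% liver. The log2 fold change of 5% oil over control was 0.57 ± 0.15 (n = 4 per diet; edgeR adjusted p = 0.0693), which did not pass, but the trend per percent of oil did. That slope was 0.12 ± 0.03 on the log2 scale per percent (edgeR adjusted p = 0.0453), and Rps19 was the 1 member called among 77, where 1.22% of all genes were called higher. Leaving out any single liver other than control female N980 gave 0 members called for the slope, and leaving out N980 gave Rps4x in place of Rps19.

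Other large fold changes with 5% oil were those of Rplp2 of the stalk (0.58 ± 0.23, edgeR adjusted p = 0.255) and Rpl12 at the base of the stalk (0.52 ± 0.28, edgeR adjusted p = 0.441). The members set out in every comparison gave 0.40 (Rpl22), 0.41 (Rps3), 0.37 (Rps18), 0.36 (Rplp1), 0.32 (Rps27), 0.31 (Rpl32), 0.30 (Rpl3), 0.29 (Rplp0), 0.24 (Rps6), 0.20 (Rpl13a) and 0.13 (Rpl39), none past the threshold. Below 0 lay Rpl10 (-0.19), Rps27l (-0.04) and Rpl27 (-0.03). Rps19 alone was free of overlap between the 4 livers of 5% oil and the 4 controls, 1 of 77, where 3.11% of all genes lay wholly above.

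**Figure D5:**
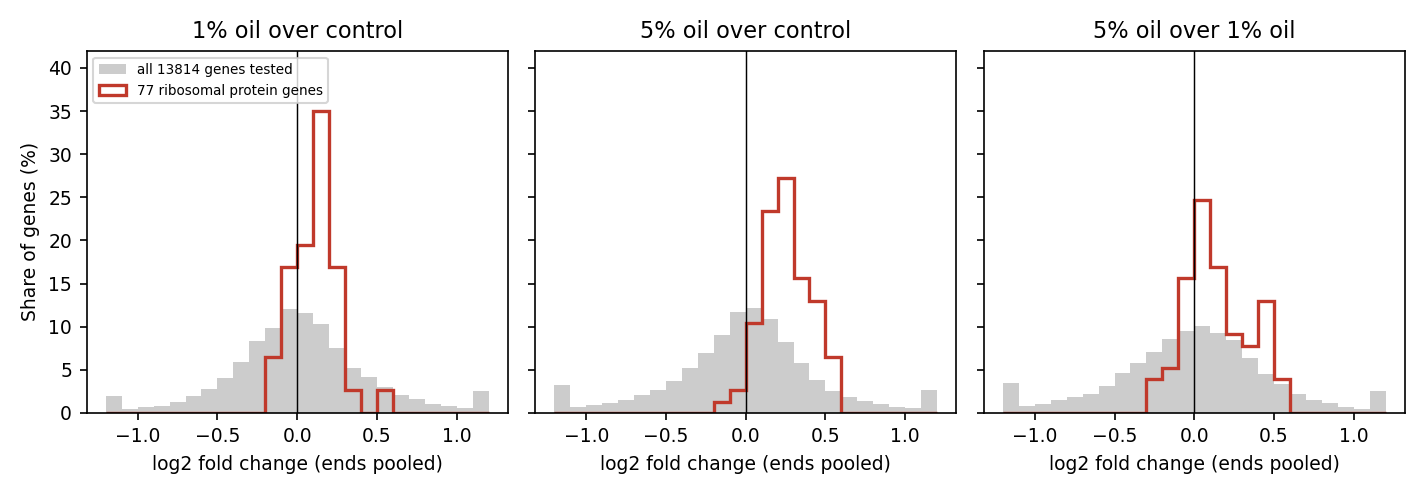
Distribution of the log2 fold changes of the 77 members (red line) and of all 13814 genes tested (grey) in 3 diet comparisons, as shares of each set, with values past 1.1 pooled in the end bars. The members are narrower than all genes and centre at 0.12, 0.26 and 0.11.

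The 1% diet against control gave 0 of 77 called (0.224% of all genes), and 2 members had an unadjusted p under 0.05 (11.1% of all genes). DESeq2 also called 0 members, and 266 of all 13814 genes. The median was 0.12, and 59 members lay above 0 (50.1% of all genes). The largest were Rpl10a (0.54 ± 0.23, edgeR adjusted p = 0.407), Rpl12 (0.52), Rpl27a (0.37) and Rps13 (0.35). On the other side lay Rplp0 (-0.17), Rpl3 (-0.16), Rpl28 (-0.15) and Rpl27 (-0.11). No member, 0 of 77, had all 1% livers above all controls, where 1.83% of all genes did.

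Between the doses, 5% against 1% oil gave 0 of 77 called (1.33% of all genes), with 12 at an unadjusted p under 0.05 (17.8% of all genes), 58 above 0 (50.4% of all genes) and a median of 0.11. Both dose comparisons with control share the 4 control livers. Members with the greatest fold changes were Rps4x (0.56 ± 0.19, edgeR adjusted p = 0.145), Rpl9 (0.52 ± 0.16, edgeR adjusted p = 0.114), Rps19 (0.51 ± 0.15, edgeR adjusted p = 0.111) and Rpl36 (0.50). Rps4x had 289, 251, 268 and 290 CPM in N983, N984, N971 and N972, and 511, 353, 381 and 385 in N987, N988, N975 and N976. Every 5% liver lay above every 1% liver for Rps4x, Rpl9, Rps19, Rpl4, Rps27a and Rps3, 6 of 77 members, where 4.1% of all genes did. DESeq2 called 3 of the 77 members, Rps3, Rps19 and Rpl9, and 699 of all 13814 genes. Lowest were Rps13 (-0.29), Rpl27a (-0.29), Rpl10 (-0.23) and Rps27l (-0.19).

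Whether females and males responded differently was tested with 2 livers per sex and diet. For 5% oil 0 of 77 members were called (0% of all genes), and 0 had an unadjusted p under 0.05 (4.67% of all genes). The median log2 fold change of 5% oil over control was 0.27 in females and 0.23 in males. Both 5% females lay above both control females for 41 members (17.8% of all genes), and both 5% males above both control males for 21 (19.6%). For 1% oil the medians were -0.03 in females and 0.23 in males. The difference between them was above 0 for 4 members (48.5% of all genes) and below 0 for 73, and 0 passed the test (0% of all genes).

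Other genes of ribosome production were read from lists of pathway genes. Myc had 0.544 (N979), 0.50 (N980), 0.94 (N967) and 0.537 (N968) CPM in controls and 10.9 (N987), 10.5 (N988), 1.62 (N975) and 5.29 (N976) with 5% oil. All 5% livers lay above all controls, and Myc rose by 3.40 ± 0.64 on the log2 scale (edgeR adjusted p = 0.0142). The 1% livers, at 3.39 (N983), 1.87 (N984), 5.38 (N971) and 1.28 (N972) CPM, also lay above all controls. Their log2 fold change over control was 2.31 (edgeR adjusted p = 0.192, not past the threshold). They overlapped the 5% livers (5% over 1% oil 1.09, edgeR adjusted p = 0.293). The controls, at 0.94 CPM or less, held few reads of Myc, so the size of these fold changes is uncertain. Myc was the 1 gene called with 5% oil in a list of 11 tested regulators of ribosomal protein gene transcription (list median 0.20). Of 46 ribosome biogenesis factors 3 rose and 0 fell with 5% oil, where 1.19% of all genes tested were called higher and 1.27% lower. The list's median log2 fold change was 0.32, against 0.26 for the ribosomal protein genes, and the difference between the lists was not tested. Those that rose were the nucleolar GTPase Gnl3 (1.06 ± 0.19, edgeR adjusted p = 0.00998), the box C/D snoRNP core protein Nop58 (0.87 ± 0.19, edgeR adjusted p = 0.0283) and the rRNA methyltransferase Nop2 (0.75 ± 0.18, edgeR adjusted p = 0.0499). Gnl3 went from 23.6 to 32.6 CPM over the controls to 41.9 to 81.7 over the 5% livers, without overlap.

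Of 12 tested genes of RNA polymerase I and its factors, Polr1b, its second largest subunit, rose by 0.91 ± 0.21 (edgeR adjusted p = 0.038) and the list's median was 0.31. Of 29 genes of the mTORC1 pathway and TOP control 0 rose and 1 fell: Sesn3, a sestrin that restrains mTORC1, fell by 1.32 on the log2 scale (edgeR adjusted p = 0.03). Of 21 listed genes with TOP messengers, translation factors among them, 0 were called (median 0.21), and of 13 p53 targets 0 (median -0.45). Counts of 0 or 1 in lists of this size lie near the shares over all genes, 1.19% higher and 1.27% lower. Zfas1 was the 1 of 12 tested snoRNA host genes that rose (0.73 ± 0.18, edgeR adjusted p = 0.0485). At 1% oil against control 0 members of these lists were called. Between the doses Tsr1 (0.99) and Wdr43 (0.72), both factors of small subunit assembly, rose and Eif4ebp3 (-2.18) fell, where 1.33% of all genes were called either way. The mean of Eif4ebp3 was 13.2 CPM in controls, 44.7 with 1% oil and 9.68 with 5% oil.

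Between the sexes, where 3.6% of all genes were called higher in females and 5.34% lower, 0 of 46 biogenesis factors were called (median 0.08), and Myc gave 0.50 ± 0.48 (edgeR adjusted p = 0.505). Of 12 snoRNA host genes, whose spliced RNAs often carry TOP starts, 6 were higher in females and 0 lower (median 0.66): Zfas1, Snhg1, Snhg6, Snhg12, Gas5 and Snhg8. Gas5 had 87.1 to 155 CPM in females and 58.5 to 94.3 in males, with overlap (0.55 ± 0.14, edgeR adjusted p = 0.0267). Of 8 ribosomal protein genes whose symbols lie outside the pattern 3 were higher (median 0.46), among them Fau, which encodes a ribosomal protein fused to a ubiquitin-like protein, and Rpsa. Rpsa had 411 to 707 CPM in females and 288 to 418 in males (0.54 ± 0.13, edgeR adjusted p = 0.0205). Of the 21 listed genes with TOP messengers Eef1d was higher and Nap1l1 lower in females, and of the 29 mTORC1 genes Deptor and Rheb were lower.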

How the data were processed

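Liver poly(A) RNA of 12 mice was sequenced; per the labels' protocols, libraries came from a stranded mRNA kit and RNA with an integrity number above 7. The design text speaks of 6 samples per group; 4 libraries per diet are labelled and were used. The authors deposited estimated counts per gene and per transcript, and a table of CPM computed from the gene counts. Per the submitters' processing notes, kallisto, edgeR and limma were used with GRCm39; versions, and whether counting used the strand, are not given in the sources used here. The authors' deposited table of log2 fold changes, p-values and adjusted signal values was not used here.

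Estimated counts were rounded, and 13814 genes passed filterByExpr, all 77 members included. They were fitted with edgeR 4.0.16 (R 4.3.3; TMM, robust quasi-likelihood, diet and sex as terms, all 12 libraries). Tests were 2-sided, with Benjamini-Hochberg adjustment over all genes tested, and 0.05 was the threshold; log2 fold changes are given ± their standard error. Interactions used 6 group means. The fit was tested on simulated data. Symbols matched 48845 of 49398 gene IDs; transcript lengths and biotypes came from GENCODE M21 (138096 of 141450 transcripts matched). The build of the sequences, GRCm38.p6, differs from the authors'.

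The members and lists were chosen with earlier results of these data known. Members named are those past the threshold (up to 8 a direction by smallest p), otherwise the 4 largest fold changes a direction, plus a set of 12 given in every comparison; Rpl28, Rpl27a, Rps4x and Rpl36, and the non-overlapping members, also appear where their values were of note and were chosen after these were seen. Some members that the rule covers are not reported here. Animals are separate mice, so p-values measure the spread between animals. Alternatives were DESeq2 1.42.0, limma voom (limma 3.58.1), RLE or no scaling, other filters, transcript sums, no sex term and each library left out; further ones were chosen after seeing the data: leaving out N979 and N988, the retained-intron share as a covariate, and pseudogene reads added to the members.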

Additional observations from a re-analysis of the deposited data

Results flagged for a closer look

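Over 93 sets of 4 livers, formed by the named members and the 3 diets, 3 held a liver that stood far from the other livers of its diet; chance flags about 1 in 20 such groups. Rpl3 was at 375.9 TMM-scaled CPM in control female N980, where the next highest control had 243. Rpl12 was at 22.23 CPM in the 5% female N988, against 9.749 in the next liver of that diet. Rpl9 was at 383.2 CPM in the 5% female N987, against 289 in the next.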

How the results depend on the processing

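The number of members higher in females was 61 with no scaling factor and 60 with DESeq2. It was 3 without N979 and N988, 1 with the retained-intron share as a term, and 12 to 39 with each liver left out. The other alternatives gave 35 to 49. Over all genes 1235 were called either way in the main fit. These calls were 1287 with no scaling, 2079 with DESeq2, 514 without N979 and N988 and 326 with the retained-intron term. For 5% oil against control, 7 members were called with no scaling factor, 2 with DESeq2 and 2 with the retained-intron term, and 0 elsewhere. Over all genes the fits with such calls gave 428, 749 and 649. For 5% against 1% oil, 2 were called with no scaling, 3 with DESeq2 and 1 without N979 and N988, where 267, 699 and 493 of all genes were. For the slope, 9 were called with no scaling, 5 with the retained-intron term and 4 with DESeq2, where 413, 603 and 733 of all genes were. With RLE factors, no filter, no sex term, or without N979 and N988 there were 0, and leaving out each liver gave 0 to 1. Dropping the scaling moved the median of all genes to 0.17 for 5% oil over control and to 0.13 between the sexes; relative to it the members' medians were 0.24 and 0.47. No member was called at 1% oil against control, or for the sex difference in the 5% response, under any alternative run. The cause of these changes was not tested. No paired analysis was possible because each liver has its own animal number and no number is shared between groups.

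Some small log2 fold changes that did not pass any test changed sign. With 5% oil over control, Rps27l was 0.13 with no scaling and -0.15 to 0.13 with a liver left out; Rpl27 was 0.13 with no scaling, 0.0024 with no filter, 0.15 with pseudogene reads added and -0.17 to 0.10 with a liver left out; Rpl10 was 0.16 with pseudogene reads. With 1% oil over control, Rplp1 was 0.060 with no scaling, 0.011 with no filter, 0.017 with 50 reads in 4 libraries, 0.15 without N979 and N988 and -0.17 to 0.18 with a liver left out. Rpl3 was 0.033 with the retained-intron term and -0.29 to 0.0021 with a liver left out, and Rps3 was 0.045 with no scaling, 0.057 with the retained-intron term and -0.11 to 0.056. With a liver left out, Rpl13a ran from -0.035 to 0.29, Rpl22 from -0.014 to 0.15 and Rpl27 from -0.24 to 0.032; pseudogene reads gave 0.012 for Rpl28 and 0.14 for Rpl27. With 5% over 1% oil, Rps6 was 0.086 with no scaling, 0.017 with no filter, 0.012 with no sex term, 0.016 with the retained-intron term, 0.094 with pseudogene reads and -0.023 to 0.054 with a liver left out. Rpl13a was -0.017 and Rps27 -0.018 without N979 and N988, Rps27 ran from -0.0083 to 0.095 with a liver left out, and Rpl39 was 0.051 with no scaling and -0.10 to 0.034. Pseudogene reads gave 0.11 for Rps13 and 0.089 for Rpl10. Between the sexes, Rps27l was 0.038 with no scaling and -0.15 to 0.030 with a liver left out.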

Other observations

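The ribosomal proteins of mitochondria, a list added after the data were seen, had 0 of 78 genes higher in females and 3 lower (Mrpl16, Mrps22 and Mrpl1), where 3.6% of all genes tested were called higher and 5.34% lower. They had a median log2 fold change of 0.04 between the sexes and -0.02 for 5% oil over control, and their difference from the cytosolic genes was not tested. Rps3a1, a small subunit gene whose symbol falls outside the pattern and which was also added, had a log2 fold change of 0.24 between the sexes and 0.38 for 5% oil over control, neither past the threshold.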
